A study of Mus musculus with 8 samples.

Results

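Among 11637 autosomal genes measured in mouse embryonic fibroblasts, 91 were lower by at least 1 on the log2(FPKM + 1) scale in Taf4 knockout cells than in control cells and stayed near or below the knockout level in each of 4 clones that carried a human TAF4 transgene. FPKM is the number of sequenced fragments divided by transcript length in kilobases and by library size. The 91 genes were picked by measured values: the mean of the knockout libraries lay at least 1 below the mean of the control libraries, and each of the 4 rescue clones lay less than 0.3 above the knockout mean. In all, 666 autosomal genes met the first condition, so the 91 make up 13.7% of the lowered genes and 0.782% of the autosomal genes tested, and 575 other lowered genes had at least 1 clone at or above that limit. They included the ligand Gas6, the adhesion molecule Cdh11, the heparan sulfate proteoglycan Gpc6, the cytokine Il18, the T-box factor Tbx20 and a row of neighbouring epidermal genes of the Sprr family.

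The 8 libraries fall into 4 groups of 2, all of MEF cells of strain C57BL/6. Control cells are titled Taf4 loxp/-, with 1 loxP allele and 1 null allele, although another label calls them wild type. Knockout cells are Taf4 -/-. The rescue cells are Taf4 -/- cells with stably expressed human TAF4, either the full protein (wild-type rescue, clones 1 and 2) or a form that lacks the TAFH domain (TAFH-deleted rescue, clones 1 and 2). Each rescue library is thus a single clone, and a clone's own history cannot be told apart from the transgene it carries. The labels do not say whether the 2 control or the 2 knockout libraries came from separate cultures, so their spread may be technical.

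TAF4 is a subunit of TFIID, the general transcription factor that binds core promoters with the TATA-binding protein and helps to place RNA polymerase II at the start of genes. Its TAFH domain is a small conserved fold known for binding to activators, among them E proteins, which recognise the E-box motif. Embryonic fibroblasts are mesenchymal cells known for making collagens and other matrix and for secreting growth factors.

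Implied library sizes ran from 14300000 to 17300000 fragments, and 1 fragment of a transcript of 2000 bases was worth 0.0322 to 0.0390 FPKM. The control pair differed by less than sampling noise (chi-square per gene 0.776 ± 0.0347 SE), as did the knockout pair (0.608 ± 0.0306), so each pair counted as 1 sample. The wild-type clones (1.64 ± 0.0640) and the TAFH-deleted clones (2.39 ± 0.0951) differed by more than that. Control 1 against knockout 1 gave 2.40 ± 0.0853. By this measure the 2 TAFH-deleted clones thus differed about as much as control 1 and knockout 1 did. The measure used only genes with few fragments, 865 to 1009 of them per pair. Of 9 fibroblast markers, 8 reached 1 FPKM in some library, with a summed level of 673 to 763 FPKM, while Thy1 was at or near 0 throughout. The highest mean of any autosomal gene tested was only 171 FPKM in control and 196 in knockout. Whether the deposited values are compressed at the top was not tested, so similar levels of abundant genes show little about change. None of 5 epithelial and none of 5 endothelial markers reached 1 FPKM in any library, and no marker was among the 91 genes. Leukocyte markers were at or near 0 except Cd68 (1 of 5, summed level 1.05 to 3.46 FPKM over the libraries), and Acta1 was the only skeletal muscle marker of 4 to reach 1 FPKM. Cartilage and bone markers (4 of 5 reached 1 FPKM) summed to 76.5 and 77.0 FPKM in control and 27.6 to 40.8 elsewhere, where Col2a1 went from 48.2 and 48.9 in control to 0.417 to 9.26, Sox9 read 5.50 to 11.5 and Runx2 19.2 to 24.2 over the 8 libraries. Neural markers (2 of 3) summed to 26.9 and 24.5 FPKM in control, 12.2 and 12.5 in knockout, 17.4 and 18.7 in wild-type rescue and 7.53 and 22.8 in TAFH-deleted rescue. The adipocyte sum, nearly all Fabp4, was 50.4 to 57.6 FPKM except for 21.1 and 19.7 in TAFH-deleted rescue. The part of these shifts in the values below was not tested. Taf4a, the mouse Taf4 gene, read 11.1 and 11.5 FPKM in control, 12.5 and 12.4 in knockout, and 14.5, 15.0, 14.7 and 19.2 in the clones, so the level summed over its transcripts was no lower in the libraries labelled knockout. The exons removed are not given in the sources used here, and every direction below rests on the labels. Its paralog Taf4b read 1.64 to 2.64 FPKM in the other libraries and 6.13 in TAFH-deleted clone 2.

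The 91 genes had modest levels in control cells, and 68 of them had a mean under 1 FPKM in knockout. Their median level was 3.72 FPKM in control (range of the group means 1.05 to 46.5), 0.207 in knockout (0 to 6.88), 0.120 in wild-type rescue and 0.0695 in TAFH-deleted rescue. The 575 other lowered genes had medians of 8.99, 2.11, 4.87 and 3.13 FPKM in the same order. Both control libraries stood above all the other 6 libraries in 91 of the 91 genes, which the rule nearly fixes. In 52 of the 91 all 6 knockout and rescue libraries were under 0.5 FPKM, and in 16 all 6 were under 0.1 FPKM. All 6 libraries were under 0.5 FPKM in 17 of the 575 other lowered genes, a contrast that the rule largely sets, since a gene near 0 in all of them cannot rise by 0.3. At the other end, 8 of the 91 stayed at 1 FPKM or more in all 6 libraries, namely Clip4, Col18a1, Nsg1, Cxxc5, Lass4, Nynrin, Gsdmd and Lhpp.

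**Figure D1:**
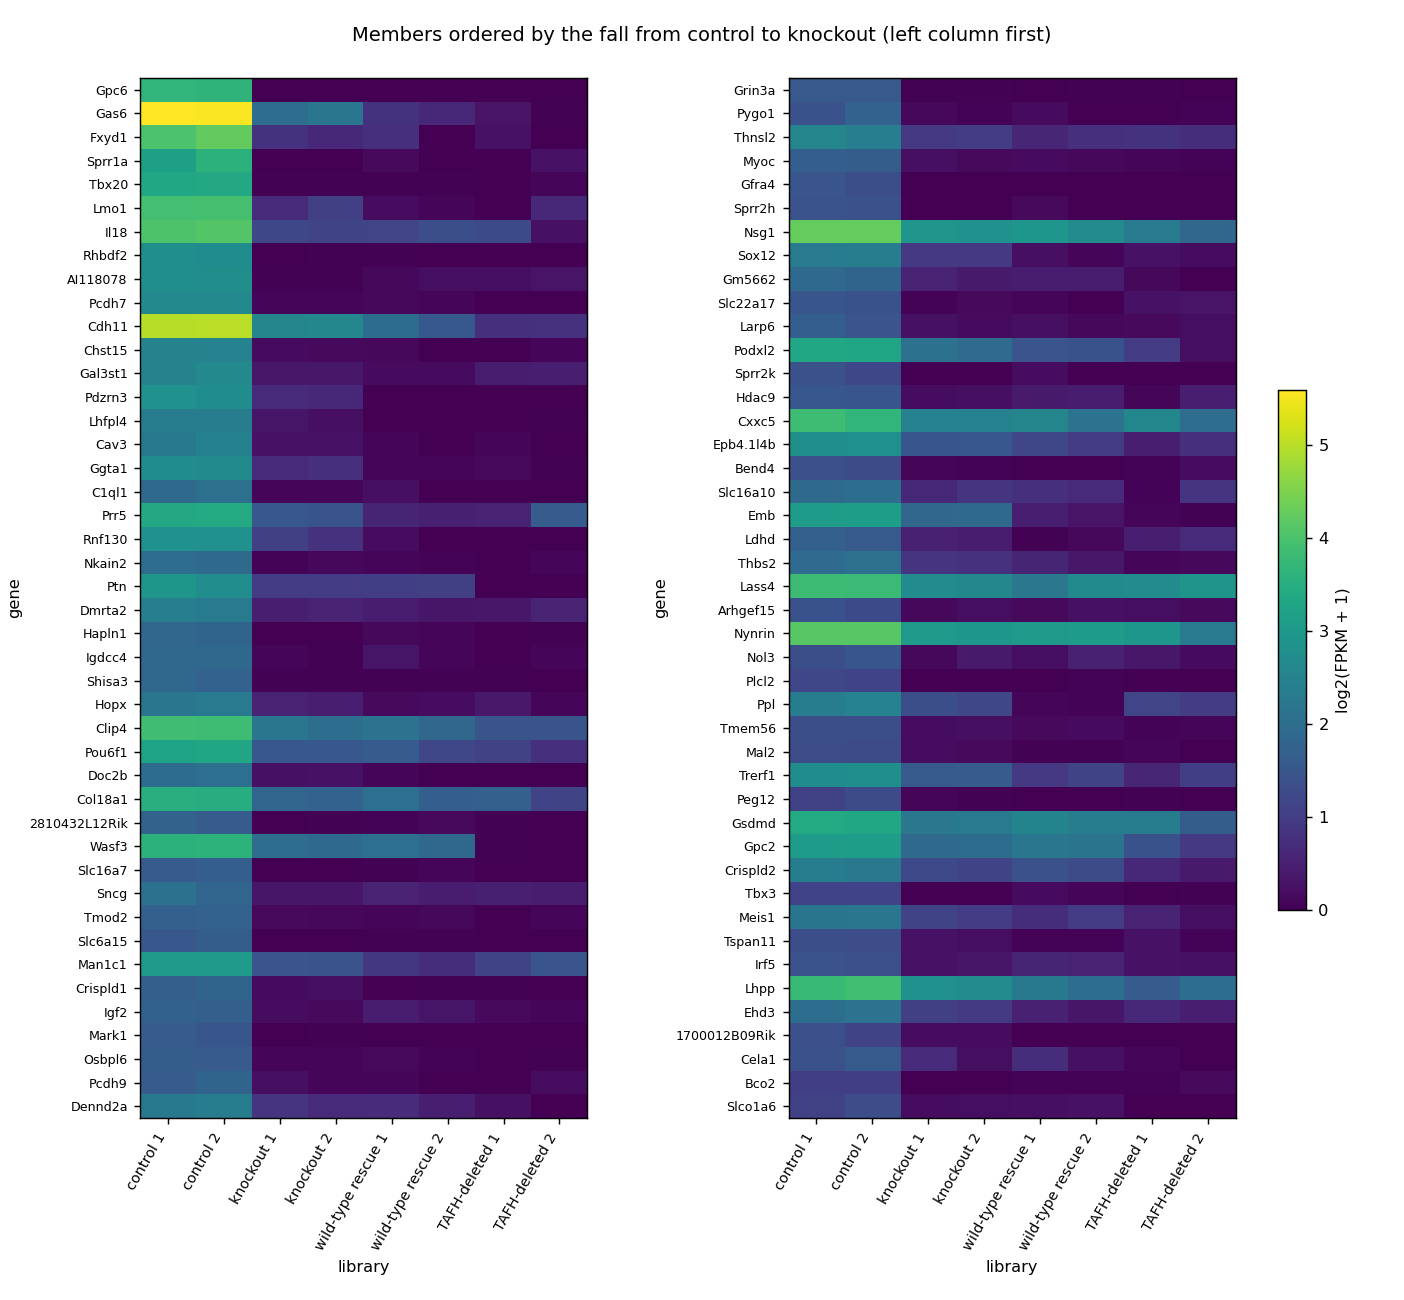
Level of 88 of the 91 genes (rows, ordered by the difference from control to knockout, left column first) in each of the 8 libraries (columns), with colour for log2(FPKM + 1). All rows share 1 colour scale. The 2 control columns are the brightest of each row, though dim for genes with low levels in control. The other 6 columns are dark for most genes, matching the medians of 3.72 FPKM in control and 0.207 FPKM in knockout.

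On the log2(FPKM + 1) scale the median difference from control to knockout was -1.54 over the 91 genes, against -0.04 over all autosomal genes tested and -1.34 over the other lowered genes. At least 1 below control is the rule itself and held for 5.72% of autosomal genes. Wild-type rescue differed from knockout by a median of -0.04 and TAFH-deleted rescue by -0.13, where the other lowered genes had 0.70 and 0.30. By clone, the medians over the 91 genes were -0.01 and -0.08 for wild-type clones 1 and 2, and -0.09 and -0.09 for TAFH-deleted clones 1 and 2. These differences chose the genes and carry no test. The scale understates differences of genes near 0. In RNA from a whole culture, fewer cells that express a gene and less RNA of it per cell cannot be told apart.

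Both forms of TAF4 bounded the group, but not equally. Of the 666 lowered genes, 381 had both wild-type clones at or above the limit and 126 had both TAFH-deleted clones there, while 77 had all 4. A single clone kept 126 lowered genes out: TAFH-deleted clone 2 alone for 90, wild-type clone 1 for 24, wild-type clone 2 for 7 and TAFH-deleted clone 1 for 5. Without TAFH-deleted clone 2 the rule would take 181 genes in place of 91. At the edges of the rule, Slco1a6, Bco2 and Cela1 were lower by 1.01, 1.04 and 1.04, and Syngr1, Gmpr and Dchs1 missed with 0.99 each. The highest clone of Cela1, Irf5 and Gsdmd lay 0.28 above knockout, and that of Mmp15, Raet1e and Esr1 lay 0.30, 0.31 and 0.32 above it.

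**Figure D2:**
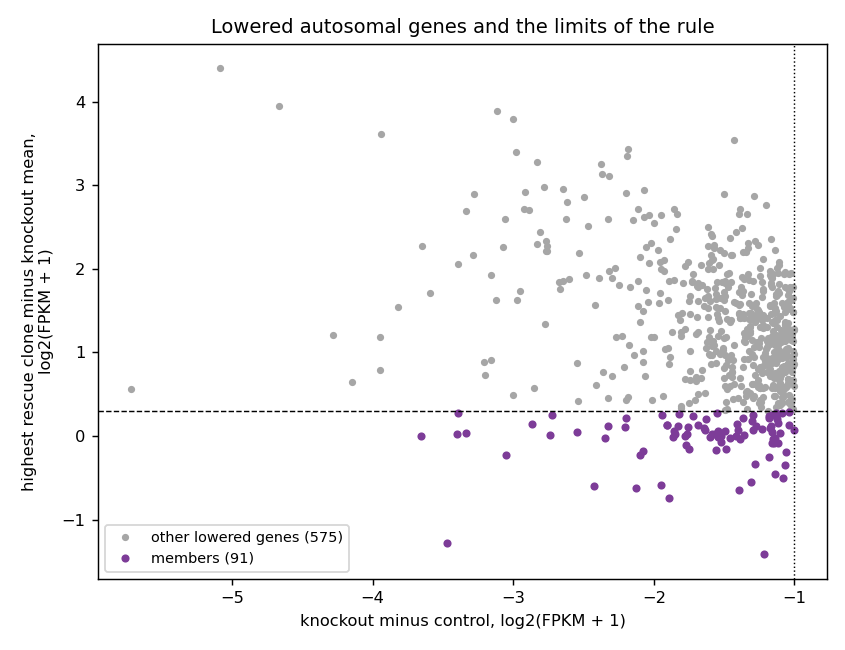
Each point is 1 of the 666 lowered autosomal genes, with knockout minus control on the x axis and the highest of the 4 clones minus the knockout mean on the y axis, both on the log2(FPKM + 1) scale. The dashed line marks the limit of 0.3 and the dotted line the limit of -1; the 91 genes lie under the dashed line, most of them near 0, with Gas6 and Emb the lowest.

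Position in the genome was not used by the rule beyond the choice of autosomes. The 91 genes lay on 18 of 19 autosomes, with the most on chromosome 6 (10 of 574 tested, 1.74%) and none of 426 on chromosome 19. Most stood alone: the 173 tested genes next to them had a median difference of -0.09 from control to knockout, and 10 of these (5.78%) were lower by at least 1. Only 5 of the 91 were next to another one, in 2 runs. Sprr2h, Sprr2k and Sprr1a, which encode small proline-rich proteins of the cornified envelope of skin, were consecutive tested genes on chromosome 3, at mm9 chr3:92189607-92191241, chr3:92236504-92237849 and chr3:92287876-92289803. On chromosome 9, Bco2, a mitochondrial carotenoid-cleaving enzyme (mm9 chr9:50341192-50363243), was followed by Il18, an inflammatory cytokine of the interleukin-1 family (mm9 chr9:50373473-50389942).

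Sprr1a read 8.11 and 11.1 FPKM in control, 0 and 0 in knockout, 0.10 and 0 with wild-type TAF4, and 0 and 0.210 with its TAFH-deleted form. Sprr2h read 1.71 and 1.60 FPKM in control, with a single value above 0 elsewhere, 0.108 in wild-type clone 1. Sprr2k likewise read 1.60 and 1.33 FPKM in control and 0.135 in wild-type clone 1, and was listed at 0 in the other 5 libraries. All 3 genes were thus above 1 FPKM in control only. The Sprr2 genes are near-identical copies of one another, so how the authors' counting split reads among them is uncertain. Their tested neighbours on the same chromosome were above 1 FPKM in all 8 libraries. The nearest lay far off, S100a8 at mm9 chr3:90472993-90473956 and S100a11 at mm9 chr3:93324418-93330210, so untested genes can lie between. S100a10 read 108 and 109 FPKM in control and 94.4 to 137 elsewhere, and S100a11 read 46.2 and 47.0 in control and 43.7 to 55.9 elsewhere. The limit given above for abundant genes applies here. On the other side, S100a8 read 12.3 and 14.1 FPKM in control, 15.1 and 18.3 in knockout, 36.4 and 29.3 with wild-type TAF4, and 1.86 and 3.28 with its TAFH-deleted form, so it was low with that form alone.

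Il18 read 15.2 and 16.0 FPKM in control, 1.33 and 1.22 in knockout, 1.24 and 1.52 with wild-type TAF4, and 1.38 and 0.186 with its TAFH-deleted form. It therefore kept a low level in knockout and rescue, with TAFH-deleted clone 2 below the rest. Bco2, 10229 bases away, read 1.05 and 1.05 FPKM in control, 0 and 0 in knockout, and 0.0313, 0.0316, 0.0375 and 0.0988 in the clones. Pts and Sdhd, the tested genes on either side of the pair, read 23.8 and 76.1 FPKM in control 1 and 21.2 and 81.9 in knockout 1. In TAFH-deleted clones 1 and 2 Pts read 27.4 and 13.8 FPKM. A further 4 pairs of the 91 genes lay within 500000 bases of each other with 1 or 2 tested genes between them: 2810432L12Rik with Grin3a, Bend4 with Shisa3, Chst15 with Lhpp, and Pou6f1 with Cela1.

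**Figure D3:**
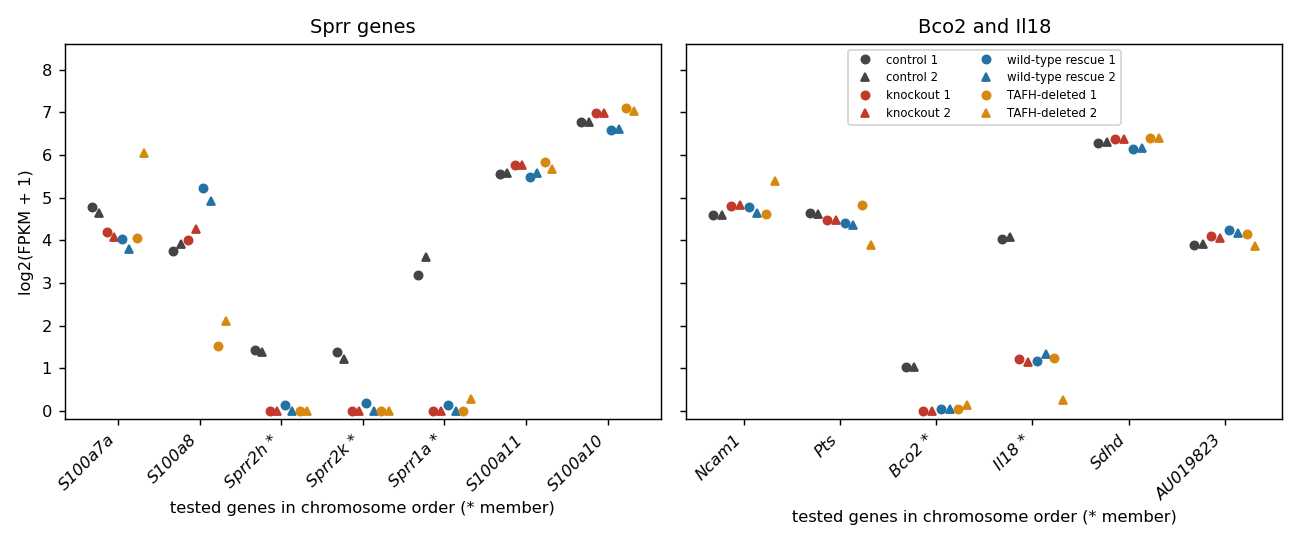
Levels on the log2(FPKM + 1) scale in each of the 8 libraries for the 2 runs of neighbouring members (marked with an asterisk) and the tested genes on either side, in chromosome order. The Sprr genes, Bco2 and Il18 are high in the control libraries only, whereas S100a11, S100a10 and Sdhd lie at similar heights in all groups. Pts differs between the TAFH-deleted clones (27.4 and 13.8 FPKM), and S100a7a and Ncam1 are highest in TAFH-deleted clone 2 (64.8 and 40.6 FPKM).

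Promoter windows of these neighbours are printed because they were consecutive among the tested genes and were low in the same libraries. Those of Gas6 and Tbx20 are printed because they stand for the strongly lowered genes that lay alone. The windows run from 250 bases before to 50 bases after the start of transcription, 5′ to 3′ along the gene, and come from RefSeq on GRCm38.p6. Capitals mark TATAAA and the E-box form CAGCTG, which is its own reverse complement, and a second E-box form, CAGGTG, on either strand. On the other strand the first motif reads TTTATA and the second E-box form reads CACCTG. A window was found for 66 of the 91 genes (72.5%), too few for a comparison of promoters between groups, so the matches are described and nothing more.
Sprr1a, chr3:92485832-92486131, minus strand: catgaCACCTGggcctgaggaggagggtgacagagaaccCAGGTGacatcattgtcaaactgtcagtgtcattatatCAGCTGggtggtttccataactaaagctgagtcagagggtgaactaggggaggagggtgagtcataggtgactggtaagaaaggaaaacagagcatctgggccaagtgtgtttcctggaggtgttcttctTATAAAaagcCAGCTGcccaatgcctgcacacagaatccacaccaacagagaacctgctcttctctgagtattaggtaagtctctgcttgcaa
Sprr2h, chr3:92385435-92385734, plus strand: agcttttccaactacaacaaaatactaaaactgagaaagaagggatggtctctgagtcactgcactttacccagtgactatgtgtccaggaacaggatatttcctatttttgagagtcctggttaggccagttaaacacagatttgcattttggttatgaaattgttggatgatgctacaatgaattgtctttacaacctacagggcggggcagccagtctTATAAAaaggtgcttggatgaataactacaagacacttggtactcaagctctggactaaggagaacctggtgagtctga
Sprr2k, chr3:92432332-92432631, plus strand: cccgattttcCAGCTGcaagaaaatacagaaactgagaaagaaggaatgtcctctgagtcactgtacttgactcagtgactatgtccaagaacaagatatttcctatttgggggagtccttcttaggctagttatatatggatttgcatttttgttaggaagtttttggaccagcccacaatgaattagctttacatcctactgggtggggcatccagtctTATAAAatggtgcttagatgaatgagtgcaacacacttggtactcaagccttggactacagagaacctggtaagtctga
Il18, chr9:50554450-50554749, plus strand: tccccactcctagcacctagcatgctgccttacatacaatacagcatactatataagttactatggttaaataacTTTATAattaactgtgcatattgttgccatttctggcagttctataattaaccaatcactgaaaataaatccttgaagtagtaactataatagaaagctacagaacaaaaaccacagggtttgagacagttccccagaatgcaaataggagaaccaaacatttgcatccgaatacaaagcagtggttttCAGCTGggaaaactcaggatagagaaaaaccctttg
Bco2, first window, chr9:50555089-50555388, minus strand: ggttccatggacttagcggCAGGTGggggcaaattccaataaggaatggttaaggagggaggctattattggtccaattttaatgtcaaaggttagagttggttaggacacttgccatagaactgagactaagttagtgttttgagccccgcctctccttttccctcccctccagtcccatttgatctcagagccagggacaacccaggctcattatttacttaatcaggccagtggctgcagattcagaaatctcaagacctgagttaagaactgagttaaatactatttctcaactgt
Bco2, second window, chr9:50553613-50553912, minus strand: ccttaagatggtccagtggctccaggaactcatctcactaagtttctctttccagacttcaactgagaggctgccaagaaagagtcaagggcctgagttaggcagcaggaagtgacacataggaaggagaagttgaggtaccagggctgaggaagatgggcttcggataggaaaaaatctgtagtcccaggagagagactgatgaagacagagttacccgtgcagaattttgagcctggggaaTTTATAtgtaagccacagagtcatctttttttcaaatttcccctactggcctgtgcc
Gas6, chr8:13494486-13494785, minus strand: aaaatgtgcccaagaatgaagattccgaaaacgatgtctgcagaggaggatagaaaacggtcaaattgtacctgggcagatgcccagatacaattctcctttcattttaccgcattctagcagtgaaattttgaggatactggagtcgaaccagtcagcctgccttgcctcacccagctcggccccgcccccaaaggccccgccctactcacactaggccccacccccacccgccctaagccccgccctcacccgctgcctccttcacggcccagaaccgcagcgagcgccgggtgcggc
Tbx20, chr9:24774254-24774553, minus strand: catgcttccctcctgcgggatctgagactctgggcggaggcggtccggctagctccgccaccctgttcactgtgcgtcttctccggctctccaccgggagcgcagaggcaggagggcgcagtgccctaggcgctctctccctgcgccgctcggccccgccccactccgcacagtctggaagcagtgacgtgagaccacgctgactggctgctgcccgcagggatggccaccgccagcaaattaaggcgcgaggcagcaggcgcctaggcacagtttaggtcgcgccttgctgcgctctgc

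All 3 Sprr windows hold TATAAA shortly before the start, with its first base at position -43 in Sprr1a and at -29 in both Sprr2h and Sprr2k. Sprr1a also holds 4 E-box matches of the forms searched, at -245, -211, -173 and -33, and Sprr2k holds 1, at -240. In the Il18 window the TATAAA match is reversed and far from the start (-175), and CAGCTG lies after it, at 15. The printed Il18 and Bco2 windows lie nearer to each other than the 10229 bases between these genes on mm9. At least 1 of these windows may therefore not be at the start of the transcript measured, and its positions refer to the RefSeq start alone. The Sprr, Il18 and Bco2 windows have 0 to 2 CpG dinucleotides. By contrast the Gas6 window has 17 and the Tbx20 window 26, and neither holds any of the 3 motifs. Of 32851 RefSeq windows of this length, 13.6% hold TATAAA, 16.3% CAGCTG and 20.2% CAGGTG on either strand, 23.3% have at most 2 CpG and 31.4% have at least 17. The looser E-box CANNTG, which covers both forms, is in 72.3%.

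Among secreted signals and matrix proteins, 11 of the 91 genes, control means ran from 2.14 to 46.5 FPKM. Gas6, the vitamin K-dependent ligand of the Axl, Tyro3 and Mertk receptors (mm9 chr8:13465374-13494535), was the most abundant of the 91 genes. It read 47.2 and 45.8 FPKM in control, 3.0 and 3.59 in knockout, 0.760 and 0.545 with wild-type TAF4, and 0.235 and 0.0258 with its TAFH-deleted form, a difference of -3.47 from control to knockout on the log2(FPKM + 1) scale. In fragments this is 1946 and 1894 in control, 106 and 127 in knockout, 31 and 22 with wild-type TAF4 and 8 and 1 with the TAFH-deleted form. The groups did not overlap, and both rescue forms lay below the knockout itself. Ptn, the heparin-binding growth factor pleiotrophin, read 6.73 and 5.69 FPKM in control, 1.00 and 0.966 in knockout, 1.06 and 1.07 with wild-type TAF4, and 0 and 0 with its TAFH-deleted form. Wild-type rescue left Ptn at the knockout level, and only the TAFH-deleted clones had no fragment of it, against 33 and 33 fragments in the wild-type clones.

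Igf2, an imprinted fetal growth factor, read 2.31 and 2.24 FPKM in control and 0.0706 to 0.353 in the other 6 libraries. Hapln1, the link protein that holds proteoglycans on hyaluronan, read 2.62 and 2.49 FPKM in control, was listed at 0 in both knockout libraries and reached at most 0.0845 in a clone. Thbs2, the matricellular protein thrombospondin 2, read 2.89 and 3.17 FPKM in control, 0.815 and 0.744 in knockout, 0.492 and 0.290 with wild-type TAF4, and 0.0490 and 0.0862 with its TAFH-deleted form. The order control, knockout, wild-type rescue, TAFH-deleted rescue in Thbs2 is the one seen in Gas6. Col18a1, the basement membrane collagen XVIII, was the 1 gene of this class at 1 FPKM or more in all 8 libraries, with 10.6 and 10.3 FPKM in control, 2.54 and 2.39 in knockout and 1.21 to 3.10 in the clones. Crispld2, a secreted protein with CAP and LCCL domains, read 4.14 and 3.73 FPKM in control, 1.33 and 1.20 in knockout, 1.62 and 1.42 with wild-type TAF4, and 0.568 and 0.328 with its TAFH-deleted form. Like Ptn, it was at or slightly above the knockout level with wild-type TAF4 and below it with the TAFH-deleted form. C1ql1, a small secreted protein with a C1q domain, read 2.84 and 3.16 FPKM in control and at most 0.169 elsewhere. Of 47 tested extracellular matrix genes 17 were lowered and 3 were members (Crispld2, Thbs2 and Hapln1), and of 25 collagen chains 7 were lowered and 1 was a member, beside 91 of 666 for all lowered genes. The median difference from control to knockout was -0.26 over the matrix list and -0.48 over the collagens.

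Cell surface and adhesion genes, with proteins of membrane domains, made up 18 of the 91 and had a median of 4.15 FPKM in control and 0.149 in knockout. Gpc6, a glypican that carries heparan sulfate on the outer cell membrane (mm9 chr14:117324537-118378751), had the largest difference of the 91 genes. It read 11.9 and 11.4 FPKM in control, 0.0103 and 0 in knockout, 0.00897 and 0.00906 with wild-type TAF4, and 0 and 0.00943 with its TAFH-deleted form, a difference of -3.65. No knockout or rescue library was above 0.0103 FPKM. Gpc2, another glypican, behaved otherwise: 7.35 and 7.63 FPKM in control, 2.81 and 2.95 in knockout, 3.60 and 3.43 with wild-type TAF4, and 1.67 and 0.907 with its TAFH-deleted form. It kept part of its level in knockout, lay slightly above that with wild-type TAF4 and was lowest with the TAFH-deleted form.

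Cdh11, a cadherin of mesenchymal cells (mm9 chr8:105156895-105309011), read 30.6 and 31.3 FPKM in control, 4.83 and 5.05 in knockout, 2.92 and 1.89 with wild-type TAF4, and 0.681 and 0.737 with its TAFH-deleted form. The 4 groups did not overlap and again lay in the order control, knockout, wild-type, TAFH-deleted. Of 37 cadherin and protocadherin genes tested, 6 were lowered and 3 were members (Cdh11, Pcdh7 and Pcdh9), with a median of 0.04 over the list. Pcdh7 read 5.19 and 5.17 FPKM in control and 0 to 0.0922 elsewhere. Pcdh9 read 2.05 and 2.47 FPKM in control and 0 to 0.178 elsewhere. Both protocadherins were near 0 in every library other than control, unlike Cdh11.

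Emb, an immunoglobulin-superfamily partner of monocarboxylate transporters (mm9 chr13:118009380-118063222), read 7.38 and 7.82 FPKM in control, 2.60 and 2.82 in knockout, 0.388 and 0.220 with wild-type TAF4, and 0.0580 and 0.0255 with its TAFH-deleted form. Rescue lay further from knockout (-1.51 with wild-type and -1.83 with TAFH-deleted TAF4) than knockout lay from control (-1.21). Podxl2, a sialomucin of the CD34 family, read 9.22 and 8.87 FPKM in control, 3.23 and 2.89 in knockout, 1.77 and 1.64 with wild-type TAF4, and 0.949 and 0.161 with its TAFH-deleted form, in the same order. Fxyd1, a regulator of the sodium pump, read 15.1 and 18.0 FPKM in control, 0.761 and 0.571 in knockout, 0.693 and 0 with wild-type TAF4, and 0.207 and 0 with its TAFH-deleted form. Here clone 2 of each form was listed at 0, so the clones of 1 form differed. Cav3, the muscle caveolin, read 3.77 and 4.49 FPKM in control and at most 0.213 elsewhere. Grin3a, an NMDA receptor subunit and the only member among 51 ion channel genes (15 lowered, list median -0.46), read 1.94 and 1.93 FPKM in control and at most 0.0223 elsewhere. Nsg1, an endosomal protein best known from neurons, was among the higher ones, with 18.4 and 18.2 FPKM in control, 6.52 and 6.07 in knockout, 6.66 and 5.50 with wild-type TAF4, and 3.87 and 2.58 with its TAFH-deleted form.

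**Figure D4:**
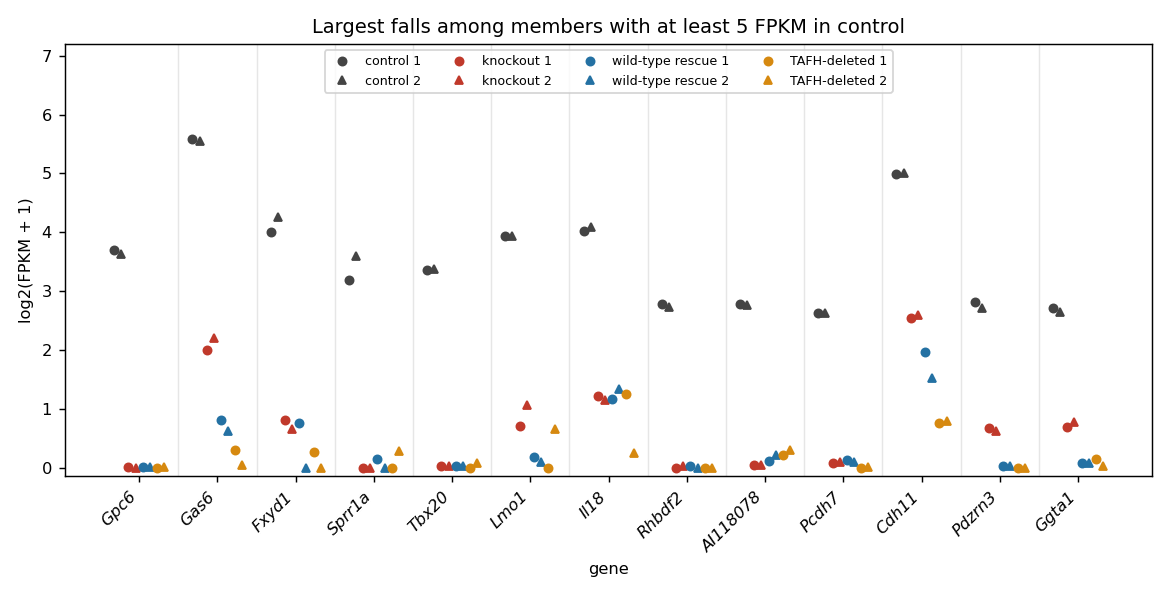
Levels on the log2(FPKM + 1) scale in each of the 8 libraries for 13 of the 14 members with the largest difference from control to knockout among those with at least 5 FPKM in control. Each point is 1 library; the grey control points stand above all the others, while Gpc6, Tbx20, Rhbdf2 and Pcdh7 lie at or near 0 elsewhere and Gas6 and Cdh11 step down from knockout to wild-type to TAFH-deleted rescue.

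Transcription and chromatin regulators accounted for 16 of the 91 genes, with control means of 1.18 to 14.3 FPKM. Tbx20, a T-box factor known from the developing heart (mm9 chr9:24525256-24578747), read 9.27 and 9.34 FPKM in control, 0.0217 and 0.0217 in knockout, 0.0188 and 0.0190 with wild-type TAF4, and 0 and 0.0503 with its TAFH-deleted form, a difference of -3.33. Its relative Tbx3 read 1.18 and 1.19 FPKM in control and 0 to 0.122 elsewhere. Both T-box genes were thus near 0 in all 6 knockout and rescue libraries. Sox12 read 3.93 and 4.07 FPKM in control, 0.91 and 0.894 in knockout, 0.180 and 0.0559 with wild-type TAF4, and 0.215 and 0.146 with its TAFH-deleted form. Sox12 was therefore below knockout in 4 of 4 clones, about equally with each form. Of 36 tested forkhead, T-box, GATA and Sox genes 9 were lowered and 4 were members, and the list median was -0.30.

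Lmo1, a LIM-only cofactor, read 14.2 and 14.3 FPKM in control, 0.623 and 1.09 in knockout, 0.135 and 0.0682 with wild-type TAF4, and 0 and 0.568 with its TAFH-deleted form. All 4 clones of Lmo1 lay below both knockout libraries. Meis1, a homeobox cofactor of Hox proteins, read 3.52 and 3.57 FPKM in control and 1.22 and 0.980 in knockout. Its clones read 0.656 and 0.988 with wild-type TAF4, and 0.460 and 0.152 with the TAFH-deleted form. The homeobox list held 51 tested genes, with 5 lowered and 1 member (median -0.13). That list is partial, since it left out the members Pou6f1 and Hopx. Irf5, an interferon regulatory factor, read 1.69 and 1.57 FPKM in control, 0.204 and 0.272 in knockout, 0.501 and 0.476 with wild-type TAF4, and 0.212 and 0.186 with its TAFH-deleted form. In Irf5 both wild-type clones stood above knockout, just inside the limit.

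Of the 42 lists, 13 held a member, and several lists of regulators and pathways held none. The share over all lowered genes was 91 of 666. The lists are partial, so a list without a member does not show that its pathway had none. No TFIID or TBP-related gene of 24 tested was lowered or a member (median -0.02). No member was among 19 bHLH factors and E proteins (2 lowered, median -0.19), nor among 14 genes known as E-protein targets in other cells (3 lowered, median 0.11). The Wnt list, which left out the members Pygo1 and Shisa3, had 11 of 33 genes lowered and no member (median -0.41). The TGF-beta and BMP list had 7 of 43 lowered and no member (median -0.16). Cell cycle genes were lowered in 10 of 40 cases with no member (median -0.33), and zinc finger protein genes in 3 of 352 with no member (median -0.07).

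Of the other epidermal genes, Ppl, which encodes the desmosomal linker periplakin (mm9 chr16:5086384-5132574), was lowest with wild-type TAF4. It read 4.14 and 4.54 FPKM in control, 1.52 and 1.27 in knockout, 0.0772 and 0.0389 with wild-type TAF4, and 1.26 and 1.01 with its TAFH-deleted form. The TAFH-deleted clones lay close to knockout, and the wild-type clones lay far below it, with 8 and 4 fragments against 109 and 100. Man1c1, a mannosidase, read 1.78 and 1.69 FPKM in knockout, 0.883 and 0.669 with wild-type TAF4, and 1.21 and 1.78 with its TAFH-deleted form, so it too was lowest with wild-type TAF4. Ldhd, a lactate dehydrogenase, likewise read 0.435 and 0.335 FPKM in knockout, 0.0290 and 0.0880 with the full protein, and 0.382 and 0.611 without the TAFH domain. With the 3 Sprr genes, Ppl made 4 members of 14 keratin and epidermal genes tested, of which 6 were lowered and whose median difference was -0.41.

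The 5 solute transporters were low throughout, with control means of 1.30 to 2.94 FPKM. Slc16a7, a monocarboxylate transporter, read 2.04 and 2.17 FPKM in control, 0 and 0 in knockout, 0.0264 and 0.0534 with wild-type TAF4, and 0 and 0 with its TAFH-deleted form. Slc6a15, a transporter of neutral amino acids, read 1.87 and 2.13 FPKM in control and at most 0.0177 elsewhere. Slc16a10, which carries aromatic amino acids, kept more: 2.84 and 3.04 FPKM in control, 0.572 and 0.796 in knockout, 0.676 and 0.590 with wild-type TAF4, and 0.0405 and 0.779 with its TAFH-deleted form. The TAFH-deleted clones differed, clone 1 being the lowest of these 6 libraries and clone 2 close to knockout. Slc22a17 read 1.83 and 1.66 FPKM in control and 0 to 0.236 elsewhere. Over 175 tested solute carrier genes 12 were lowered and 4 were members, and the list median was -0.03.

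Among 11 enzymes of glycan, lipid and small-molecule metabolism, Ggta1, which makes the alpha-galactose epitope on glycans, read 5.54 and 5.25 FPKM in control, 0.605 and 0.706 in knockout, 0.0525 and 0.0530 with wild-type TAF4, and 0.105 and 0.0184 with its TAFH-deleted form. Chst15, a sulfotransferase of chondroitin sulfate, read 4.67 and 4.61 FPKM in control and 0 to 0.116 elsewhere. Ggta1 kept a low level in knockout and lay below it in 4 of 4 clones, and Chst15 was near 0 in all 6 libraries. Lass4, a ceramide synthase, had one of the lowest ratios of control to knockout FPKM among the members (2.50), though not one of the smallest differences on the log2(FPKM + 1) scale (-1.18). It read 13.3 and 13.0 FPKM in control, 5.46 and 5.05 in knockout, 3.67 and 5.38 with wild-type TAF4, and 5.52 and 6.40 with its TAFH-deleted form. Lhpp, a phosphatase, read 12.6 and 14 FPKM in control, 6.02 and 5.49 in knockout, 3.76 and 3.03 with wild-type TAF4, and 2.10 and 3.07 with its TAFH-deleted form. The clones of Lass4 lay on either side of knockout, and those of Lhpp lay below it in all 4.

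Cytoskeletal, signalling and trafficking genes made up 19 of the 91, with medians of 3.72 FPKM in control and 0.256 in knockout. Rhbdf2, which encodes iRhom2, a membrane protein that escorts the sheddase ADAM17, read 5.86 and 5.61 FPKM in control and at most 0.0196 in the other 6 libraries. Mark1, a microtubule affinity-regulating kinase, had 153 and 139 fragments in control, 0 and 1 in knockout and 0 in 4 of 4 clones. Both genes were near 0 in all libraries but control. Rnf130, a RING-finger ubiquitin ligase, read 6.09 and 6.07 FPKM in control, 1.10 and 0.730 in knockout, 0.136 and 0 with wild-type TAF4, and 0 and 0 with its TAFH-deleted form. Pdzrn3, another ubiquitin ligase, read 6.06 and 5.58 FPKM in control, 0.588 and 0.536 in knockout, 0.0150 and 0.0152 with wild-type TAF4, and 0 and 0 with its TAFH-deleted form. Both ligase genes lay below their low knockout level in 4 of 4 clones.

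Prr5, a component of the mTORC2 kinase complex, read 9.34 and 9.64 FPKM in control, 1.86 and 1.74 in knockout, 0.503 and 0.399 with wild-type TAF4, and 0.473 and 2.08 with its TAFH-deleted form, which differed from each other. Clip4, a CAP-Gly domain protein, read 13.6 and 13.5 FPKM in control, 3.56 and 3.03 in knockout, 3.36 and 2.61 with wild-type TAF4, and 1.73 and 1.72 with its TAFH-deleted form. Gsdmd, the pore-forming executor of pyroptosis, read 9.73 and 9.15 FPKM in control, 3.65 and 3.87 in knockout, 4.77 and 4.14 with wild-type TAF4, and 4.19 and 2.16 with its TAFH-deleted form. Gsdmd thus lay slightly above knockout in 3 of 4 clones. Nol3 overlaps 4931428F04Rik, which read 5.94 and 5.88 FPKM in control and 2.64 to 4.26 elsewhere, and whether the counting used strand is not given in the sources used here, so the level of Nol3 (1.54 and 1.83 FPKM in control, 0.0931 to 0.425 elsewhere) is uncertain.

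The remaining members are Peg12, an imprinted gene expressed from the paternal allele, and 6 genes without an assigned role. Peg12 read 1.14 and 1.45 FPKM in control and 0 to 0.0554 elsewhere. With Igf2 it made 2 members of 21 imprinted genes tested, 5 of them lowered, with a list median of 0.09. AI118078 was the strongest of the others, with 5.84 and 5.77 FPKM in control, 0.0307 and 0.0307 in knockout and 0.0798 to 0.224 in the clones. Nynrin was the most abundant member in knockout, with 16.7 and 16.6 FPKM in control, 7.06 and 6.69 in knockout and 3.90 to 7.55 in the clones. In all, 27 of the 91 genes fell in any of 42 pathway and family lists and 64 in none.

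The rule set no lower bound on the clones, and only an FPKM of 0 bounds them from below. How far they lay below knockout describes the members further. In 33 of the 91 genes all 4 clones lay below the knockout mean, which was so for 12.4% of autosomal genes; the upper limit of 0.3 favours such genes, and nothing is read from the difference. The mean of the wild-type clones lay at least 1 below knockout in 3 of the 91 (Gas6, Emb and Ppl; 0.885% of autosomal genes), and the mean of the TAFH-deleted clones in 5 (Gas6, Wasf3, Emb, Cdh11 and Podxl2; 2.91%). The 68 members with a knockout mean under 1 FPKM could not lie that far below it on this scale, so nothing is read from these shares. The highest of the 4 clones lay at least 0.5 below knockout in 9 (0.756% of autosomal genes; the rule's limit favours these too): Gas6, Cdh11, Pdzrn3, Ggta1, Rnf130, Sox12, Podxl2, Emb and Lhpp. In the authors' deposited table, 73 of the 78 members tested between control and knockout were called, each higher in control (33.8% of the autosomal genes tested there). Calls in that table were taken for the longest transcript of each gene, whereas the levels given here are summed over transcripts. Against knockout, the authors' deposited table called 11 of 29 members tested in wild-type rescue (11.0% of genes) and 8 of 29 in TAFH-deleted rescue (0.664%), each lower than knockout. The rule used these contrasts, so nothing is read from the counts. Cdh11, Emb, Gas6, Rnf130, Thbs2 and Trerf1 were called against knockout with both forms in the authors' deposited table.

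The 2 forms of TAF4 were compared directly. The rule bounds each of them from above, and an FPKM of 0 bounds them from below. TAFH-deleted rescue was lower than wild-type rescue in 61 of the 91 genes, against 44.9% of autosomal genes and 64.5% of the other lowered genes. The cap on each clone shapes that count, and nothing is read from it. The 91 genes had a median difference of -0.06 against 0.05 over all autosomal genes and -0.43 over the other lowered genes. It was lower by at least 1 in 3 (Wasf3, Ptn and Gpc2; 6.04% of autosomal genes) and higher by at least 1 in Ppl alone (2.09%). With limma over all 12022 genes tested and an adjusted p under 0.05, 1 of the 91 was called lower in TAFH-deleted rescue (1.68% of autosomal genes) and 0 were called higher (0.507%), while 13 had an unadjusted p under 0.05 (27.5% of autosomal genes and 47.8% of the other lowered genes had one). Of the 575 other lowered genes 82 were called lower and 3 higher. In 72 of the 91 genes the mean of wild-type rescue was under 1 FPKM, so a difference of -1 was out of reach. The rule also used the values of these clones, so nothing is read from the counts of members beside these shares.

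Wasf3 was the gene called. It encodes a WAVE-family protein that drives actin branching through the Arp2/3 complex (mm9 chr5:147196582-147282701). It read 11.0 and 11.3 FPKM in control, 2.99 and 2.75 in knockout, 3.14 and 2.69 with wild-type TAF4, and 0.0283 and 0 with its TAFH-deleted form. Wild-type rescue left it at the knockout level, and the TAFH-deleted clones held 1 and 0 fragments against 133 and 113. The difference was -1.95 ± 0.17 (SE) on the log2(FPKM + 1) scale, with a limma adjusted p of 0.0397. That call was lost without wild-type clone 1 (limma adjusted p 0.536), without wild-type clone 2 (0.420) and with no filter on low values (0.0883). The next members by limma were Ptn (-1.05 ± 0.14, adjusted p 0.0543), Ppl (1.01 ± 0.16, adjusted p 0.0616), Crispld2 (-0.80 ± 0.18, adjusted p 0.0851), Cdh11 (-0.98 ± 0.23, adjusted p 0.0921) and Gpc2 (-1.0 ± 0.24, adjusted p 0.0943). None of these 5 passed the threshold.

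Low counts limit what the members near 0 can show. For 62 members, those of 1 transcript that spans 1000 bases or more, the values could be turned back into fragments, and each control library held 25 to 2173 fragments per gene, with a median of 209. In 10 of these 62 genes each of the 6 knockout and rescue libraries held at most 3 fragments, and 4 had 0 in both knockout libraries, Hapln1 with 219 and 209 fragments in control among them. For such genes a further difference between the forms was not detectable at this depth. The longest transcript of the members had a median of 3348 bases, against 2781 in the other lowered genes and 2789 over all genes tested.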

How the data were processed

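The authors deposited 1 table of FPKM values for 30028 RefSeq transcripts in 8 libraries, with their own p-values and q-values per comparison, per the file headers. CASAVA 1.8, TopHat, Cufflinks, Cuffdiff and mm9 are named in the submitters' processing notes. Options are not given in the sources used here. FPKM values were summed per gene symbol (23235, with 47 date-mangled symbols restored). Log2 values with a pseudocount of 1 were taken of the deposited FPKM. Genes needed 1 FPKM in 2 libraries and a transcript of 300 bases, which left 12022 genes, 11637 of them autosomal. The 91 members, all from these, were found by the stated rule. The members and lists were chosen with earlier results of these data known. TAFH-deleted and wild-type rescue were compared with limma 3.58.1 (R 4.3.3; trend, 2-sided, Benjamini-Hochberg threshold 0.05) on 6 samples (the 4 clones and the averages of the control and of the knockout libraries), with 2 residual and 2.16 prior degrees of freedom. On simulated data of 12022 genes for this comparison, 71 of 100 genes changed by 3 (log2) and 21 of 100 changed by 1 were recovered, with 2 unchanged genes called. Named genes are the 14 largest differences from 5 FPKM up in control, the 8 highest in control, up to 4 per list, 3 on each side of each limit, the 5 furthest below knockout per form, neighbouring members and called members; predicted genes were left out. Other members, predicted genes included, were named after their values were seen, and the grouping by role was made then too. The values of 3 members are not reported here. Fragments were recovered from the steps of low FPKM values, after taking 204 bases off the transcript length; 96.3% to 97.8% of low values were whole within 0.05. The ± values are standard errors: over genes for the chi-square, and from limma's moderated spread between the clones for differences between the 2 forms. Counts of fragments cover counting error only. Alternatives were another pseudocount, filters, quantile normalization, other limits, other sample sets and leaving out each library.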

Additional observations from a re-analysis of the deposited data

How the results depend on the processing

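The count of members moved from 91 to 33 with 5 FPKM required in 2 libraries, to 18 with a difference of 2 from control to knockout, to 33 with no rise allowed above knockout and to 159 with a rise under 0.6. Leaving out 1 library gave 92 to 181 members, the highest without TAFH-deleted clone 2. Other settings gave 65 (quantile normalization, 57 of them shared), 72 (pseudocount 0.1, 56 shared), 91 (no filter) and 133 (limits on the means). Lowered genes went from 666 to 956 with a pseudocount of 0.1, and to 434 under quantile normalization, which shifts the median difference of all genes by 0.11. Under that scaling 91 of the 91 members were still below control, 63 of them by at least 1.
Between the 2 rescue forms, limma called 203 genes lower and 112 higher with TAFH-deleted TAF4, 1 and 0 of them members. Counting all 8 libraries without a replicate block gave 1848 lower and 2717 higher (members 15 and 3), and with replicate numbers as a block 1631 and 2289 (members 12 and 2), in which Wasf3 had an adjusted p of 0.00188; the numbers do not pair the samples (correlations -0.07 to 0.01). The 4 clones alone gave 156 and 74, a pseudocount of 0.1 gave 106 and 36 (members lower 2), no filter 252 and 36, and quantile normalization 119 and 49. Leaving out 1 library gave 0 to 2870 genes lower, 0 to 3854 higher, 0 to 15 members lower and 0 to 4 higher, with 0 called without either wild-type clone and the highest counts without a TAFH-deleted clone; the lone clone left is assumed to vary like the other groups. The causes were not tested. The adjusted p of Wasf3 was 0.000301 to 0.536 over all alternatives, and its difference kept its sign in each of them.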

Other observations

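The opposite pattern was looked for among genes that were higher in knockout cells. Of the autosomal genes tested, 95 were higher by at least 1 in knockout than in control, and 0 of these kept every clone less than 0.3 below the knockout mean. In 50 of the 95 all 4 clones lay more than 0.3 below knockout. Since every one of the 95 was at 1 FPKM or more in knockout, the lowered genes at that level are the nearer comparison: 396 lowered genes had a knockout mean of at least 1 FPKM, and 23 of them (5.81%) were members. A single gene, 3110070M22Rik, chosen after its values were seen, was under 0.5 FPKM in both control libraries and at 1 FPKM or more in all 6 knockout and rescue libraries, where 76 genes showed the reverse and 52 of those were members. A gene under 0.5 FPKM in those 6 libraries passes the filter only through its control values. The rule also largely sets the 52, since a gene near 0 in all of them cannot rise by 0.3. Nothing is read from 1 against 76, and no test was made of the counts in this paragraph.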
